A study of Mus musculus with 24 samples.

Results

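The regions described here are stretches of the mouse genome far from promoters that carried an H3K27ac peak only after lipopolysaccharide (LPS) and had no H3K4me1 peak beforehand. They were chosen from peak lists. A region is an H3K27ac peak of the empty vector cells after 4 h of LPS that overlapped, by at least 1 bp, an H3K27ac peak of the shWdr82 cells after LPS. It overlapped no H3K27ac peak of either vector in untreated cells and no H3K4me1 peak of either vector in untreated cells, and it lay 2500 bp or more from every H3K4me3 peak of all 4 H3K4me3 lists. Of 28986 H3K27ac peaks in the empty vector LPS list, 15919 were distal in this sense, 6670 of those were in no untreated H3K27ac list, and 4625 of those were also in the shWdr82 LPS list. Of these 4625 gained distal peaks, 2629 (56.8%) had no H3K4me1 peak in either untreated list and are the regions of this report.

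H3K4me1 is placed on enhancers by the MLL3 and MLL4 methyltransferases and is commonly read as a mark of a primed enhancer, whereas H3K27ac, placed by p300 and CBP, marks enhancers and promoters in use. In macrophages most enhancers that respond to a stimulus already carry H3K4me1, set down with lineage factors such as PU.1. A smaller class, known as latent enhancers, lacks both marks at rest and acquires them after stimulation, when signal-dependent factors such as NF-kB, AP-1, STAT and IRF proteins bind there. Active enhancers are themselves transcribed by RNA polymerase II (Pol II) into short RNAs that usually end early. Serine 2 phosphorylation of the Pol II C-terminal repeats (Ser2P) goes with productive elongation, and H3K36me3 is laid down by SETD2 along the bodies of transcribed units. WDR82 is part of the SET1 H3K4 methyltransferase complexes, and also of complexes with the PNUTS phosphatase subunit and with ZC3H4 that take part in ending transcription.

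The cells were macrophages grown from bone marrow of FVB/Hsd mice, infected with retroviral vectors, selected with puromycin and used on day 7. The Wdr82 cells carried the hairpin sh1137 (shWdr82), which is 1 hairpin sequence. The controls carried the empty LMP vector for H3K27ac and H3K4me3, and a scrambled hairpin for H3K4me1, H3K36me3, total Pol II and Ser2P. For each antibody there was an untreated (UT) library and an LPS library of each vector, so the 24 lists hold 1 library per group. LPS was given at 10 ng/ml. The sample titles give 4 h for H3K27ac and H3K4me3 and 45 min for the other antibodies, while the treatment protocol names 4 h alone. The H3K27ac that defines the regions was therefore recorded at a later time than the Pol II, H3K36me3 and H3K4me1 set beside it. The lists held from 14420 to 65149 peaks each, read depth is unknown, and no gene expression was available to check the knockdown or the cell type.

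With 1 library per group no difference has a replicate check and no test was run. Shares of regions carry exact Clopper-Pearson 95% intervals and differences carry 95% Wald intervals. All of these cover counting error only. A region without a peak in a list may still hold signal under the caller's threshold. Regions within a group on the same chromosome may lie in a single transcribed unit and are not independent.

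The regions were narrower and had lower H3K27ac scores than the gained peaks that already had H3K4me1. These values belong to the lists that chose the regions and are given as a description. The width had a median of 2199 bp (quartiles 1401 and 3299 bp), against 2811 bp for the 1372 gained distal peaks with H3K4me1 in both untreated lists (the premarked gained peaks). It was 3648 bp for the 6549 distal peaks with H3K27ac in all 4 lists and H3K4me1 in both untreated lists (the constant premarked peaks). The H3K27ac score, the authors' value from the peak caller, had a median of 207 (quartiles 103 and 503), against 301 and 560 in those 2 classes. The lowest score of a region was 50.06 in the empty vector list and 50.02 in the shWdr82 list, at the floor of the lists, and the highest was 3218. The thresholds left close neighbours on both sides. The region nearest to H3K4me3 lay 2509 bp away, and the nearest peak left out by that distance alone lay 2496 bp away. One region lay 16 bp from an untreated H3K4me1 peak, and 12 gained distal peaks were left out by an overlap of under 100 bp, the smallest of 11 bp. Another 1451 peaks met every condition except a peak in the shWdr82 LPS list, and 691 met the mirrored conditions in the shWdr82 LPS list alone.

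The H3K27ac peaks of the regions were slightly narrower in the shWdr82 list, by about as much as over all distal peaks. At the 2099 regions that matched 1 shWdr82 peak to 1 empty vector peak, the median width was 2206 bp in the empty vector list and 1950 bp in the shWdr82 list. The median log2 ratio of shWdr82 to empty vector width was -0.10, with 1319 regions narrower and 778 wider in shWdr82 cells. Over all 10721 distal peaks matched in this way it was -0.09. With all overlapping peaks summed at all 2629 regions, the median log2 ratio was -0.05.

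Most regions lay several kilobases from any H3K4me1 peak of untreated cells. The distance to the nearest one had a median of 7092 bp (quartiles 2702 and 17731 bp). It was at most 100 bp for 20 regions, at most 1000 bp for 266 (10.1%), and at most 10000 bp for 1564 (59.5%). The nearest untreated H3K27ac peak was farther away, at a median of 16712 bp, and lay within 1000 bp of 135 regions (5.14%). The nearest H3K4me3 peak of any list was at a median of 31304 bp, against 26196 bp for the premarked gained peaks and 22685 bp for the constant premarked peaks. The regions were found on all 20 chromosomes with peaks. They made up from 12.0% of the distal H3K27ac peaks on chromosome 17 to 21.0% on chromosome 3.

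Strong H3K27ac was also found at regions of this kind. In 46 regions the lower of the 2 LPS scores was 3100, near the ceiling of the scale, and 37 of these 46 had no H3K36me3 peak in any list. Their widths ran from 3009 to 18643 bp, and their distances to untreated H3K4me1 from 144 to 144339 bp, with a median of 11251 bp. An H3K4me1 peak was present after LPS in at least 1 list at 10 of the 46, against 12.6% of all regions. Ser2P after LPS was found at 6 in scrambled and at 6 in shWdr82 cells, and total Pol II at 5 and at 8. Over all regions the shares were 5.44% and 8.75% for Ser2P and 8.37% and 9.81% for total Pol II. Over all distal peaks they were 6.41% and 10.4%, and 17.3% and 19.4%. Of the 46, the one farthest from H3K4me1, chr1:26480052-26485386 (mm9, as are all positions here), was 144339 bp from the nearest untreated H3K4me1 peak and 14005 bp from the nearest untreated H3K27ac peak. It had no peak in any of the H3K4me1, Pol II, Ser2P or H3K36me3 lists. Another, chr2:126050465-126063637, was 13173 bp wide and lay 59014 bp from untreated H3K4me1. It overlapped a single weak Pol II peak, with a total Pol II score of 86.18 in the shWdr82 LPS list.

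The 10 regions most distant from H3K4me1 lay from 807767 to 2010671 bp away. Of these, 6 fell within a stretch of chromosome 2 from 96240593 to 96366232. The strongest of the 6, chr2:96326433-96331248, had H3K27ac scores of 2096 in empty vector and 2024 in shWdr82 cells after LPS. None of the 10 overlapped an H3K4me1, total Pol II, Ser2P or H3K36me3 peak in any list. The files do not pair positions with genes, so no gene is named for these regions.

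After LPS, few of the regions had gained an H3K4me1 peak at the 45 min time point. Of the 2629 regions, 187 (7.11%, 6.16 to 8.16) overlapped an H3K4me1 peak in the scrambled LPS list and 233 (8.86%, 7.80 to 10.0) in the shWdr82 LPS list. Over all 15919 distal H3K27ac peaks the shares were 68.7% and 66.9%. The regions were chosen for having no H3K4me1 in untreated cells, so a gain was the only change they could show. Both LPS lists shared 88 regions, which is 47.1% of the scrambled set and 37.8% of the shWdr82 set. No H3K4me1 list of the 4 held a peak at 2297 regions (87.4%). These shares moved with the settings. With H3K4me1 peaks of score 100 or more they were 2.05% and 2.43%, and with each region extended by 1000 bp on both sides 14.6% and 16.8%. When only the scrambled untreated H3K4me1 list had to be empty, they were 11.7% and 14.4%. The H3K4me1 peaks that did appear were weak and narrow. In the scrambled LPS list the 192 such peaks had a median score of 71.8 and a median width of 1242 bp, against 190 and 1801 bp over the whole list, and the median score stood at percentile 14.2. In the shWdr82 LPS list the 241 such peaks had a median score of 75.54, at percentile 18.1, and a median width of 1181 bp.

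The turnover of H3K4me1 could be read without that choice over all 4625 gained distal peaks. In scrambled cells 345 of them had H3K4me1 after LPS alone and 201 in the untreated list alone, a difference of 3.11 percentage points (2.13 to 4.10). In shWdr82 cells the numbers were 382 and 227, a difference of 3.35 points (2.31 to 4.39). Over all 15919 distal peaks the differences were 1.66 points (1.23 to 2.09) in scrambled and 1.56 points (1.08 to 2.03) in shWdr82 cells. The H3K4me1 lists were longer after LPS, at 65149 peaks against 61252 in scrambled and 61848 against 60602 in shWdr82 cells. At the 7366 distal peaks with H3K27ac in all 4 lists the same difference was 1.06 points (0.555 to 1.56) in scrambled cells and -0.0543 points (-0.661 to 0.552) in shWdr82 cells. Put the other way, 332 (12.6%) of the 2629 gained peaks absent from both untreated H3K4me1 lists were in at least 1 LPS list. Of the 2491 gained peaks absent from both LPS lists, 194 (7.79%) were in at least 1 untreated list. Appearance of H3K4me1 thus stood beside a smaller number of peaks that moved the other way.

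The share with H3K4me1 after LPS was lower at greater distance from existing H3K4me1. In the scrambled LPS list it was 9.77% for the 266 regions within 1000 bp, 8.46% for 768 regions over 1000 and up to 5000 bp, 6.52% for 1013 regions over 5000 and up to 20000 bp away and 5.15% for the 582 regions beyond 20000 bp. In the shWdr82 list the shares were 13.9%, 9.11%, 9.97% and 4.30%. The intervals of neighbouring bins overlapped in the scrambled list. In the shWdr82 list the bin beyond 20000 bp stood below the others. The 306 distal peaks with H3K27ac in all 4 lists and no untreated H3K4me1 (the constant unmarked peaks) were chosen in the same way on H3K4me1. Of these, 27.1% had H3K4me1 in the scrambled LPS list and 23.9% in the shWdr82 LPS list. The difference of the regions from these was -20.0 points (-25.1 to -14.9) and -15.0 points (-19.9 to -10.1). The constant unmarked peaks also lay nearer to untreated H3K4me1, at a median of 4218 bp with 21.9% within 1000 bp, and had a higher median H3K27ac score of 324. The part of distance and score in the difference was not tested.

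**Figure D1:**
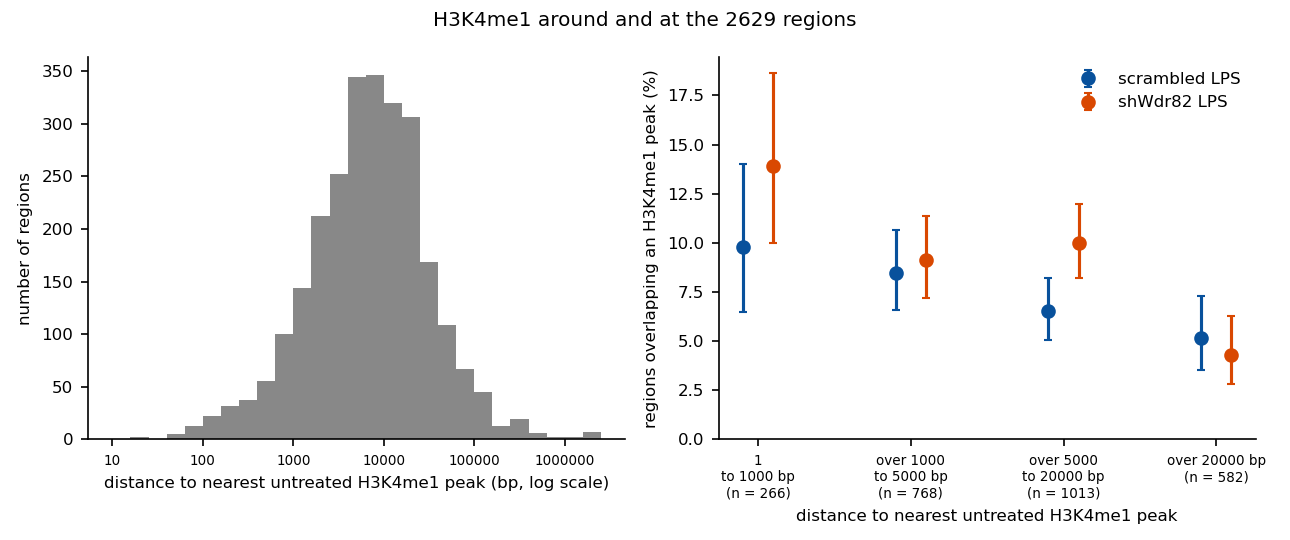
Left, number of regions by distance to the nearest untreated H3K4me1 peak in bp on a log axis. Right, share of regions overlapping an H3K4me1 peak after LPS in each distance bin, with 95% Clopper-Pearson intervals, for scrambled (blue) and shWdr82 (orange) cells: the median distance is 7092 bp and the share runs from 9.77% to 5.15% in scrambled and from 13.9% to 4.30% in shWdr82 cells.

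Polymerase was found at a small part of the regions. Total Pol II peaks overlapped 206 regions (7.84%, 6.84 to 8.93) in scrambled untreated cells and 220 (8.37%, 7.34 to 9.49) in scrambled cells after LPS. They overlapped 176 (6.69%, 5.77 to 7.72) in shWdr82 untreated cells and 258 (9.81%, 8.70 to 11.0) in shWdr82 cells after LPS. Over all distal H3K27ac peaks the shares in the same order were 21.6%, 17.3%, 18.4% and 19.4%. After LPS the difference from the premarked gained peaks was -5.41 points (-7.52 to -3.30) in scrambled cells and -7.46 points (-9.76 to -5.16) in shWdr82 cells. The constant premarked peaks stood higher, at 36.2% in scrambled untreated cells and 26.6% in scrambled cells after LPS.

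Ser2P overlapped 108 regions (4.11%, 3.38 to 4.94) in scrambled untreated cells and 143 (5.44%, 4.60 to 6.38) after LPS. In shWdr82 cells it overlapped 98 (3.73%, 3.04 to 4.52) untreated and 230 (8.75%, 7.70 to 9.89) after LPS. Over all distal peaks these shares were 5.53% and 6.41% in scrambled cells and 5.66% and 10.4% in shWdr82 cells. Taken as a whole, the Ser2P shares of the regions and of the premarked gained peaks had differences whose intervals held 0 in all 4 libraries. An example was -1.05 points (-2.61 to 0.518) in scrambled cells after LPS. In that library, among peaks without H3K36me3 in any list, Ser2P was at 2.34% of the regions and 4.15% of the premarked gained peaks. The shares were closer in scrambled untreated (1.70% and 2.12%), shWdr82 untreated (1.56% and 2.63%) and shWdr82 LPS cells (6.52% and 7.68%). Total Pol II without H3K36me3 in scrambled LPS cells was at 1.66% and 6.98%. With H3K36me3 in all 4 lists, Ser2P in scrambled LPS cells was at 19.0% (15.2 to 23.3) and 14.4% (10.2 to 19.5), with overlapping intervals. Total Pol II there was at 37.0% and 36.4%. H3K36me3 overlapped 19.2% of the regions in scrambled untreated, 17.8% in scrambled LPS, 18.7% in shWdr82 untreated and 19.1% in shWdr82 LPS cells. Over all distal peaks it overlapped 24.9%, 23.7%, 24.3% and 24.4% in that order.

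**Figure D2:**
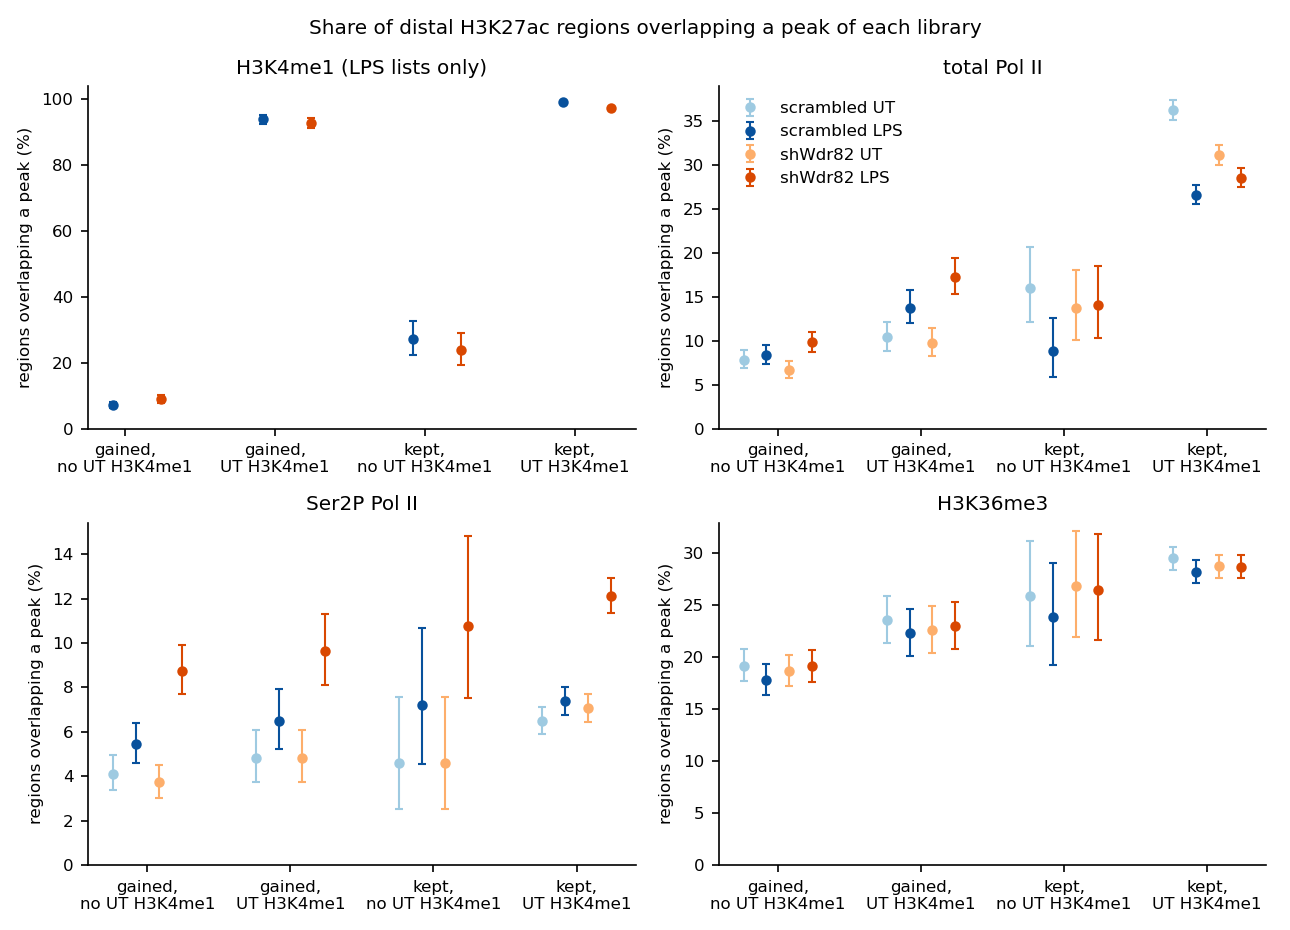
Percentage of regions overlapping a peak of each library (points, with 95% Clopper-Pearson intervals) in 4 classes of distal H3K27ac peaks, namely the 2629 gained regions without untreated H3K4me1, 1372 gained with it, 306 constant without it and 6549 constant with it. The regions, at the left of each panel, have the lowest total Pol II share in untreated cells (7.84% scrambled, 6.69% shWdr82), and in every class the Ser2P point of shWdr82 LPS cells stands above the other 3.

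For both forms of polymerase the LPS difference was larger in shWdr82 than in scrambled cells. The gap was 3.69 points (2.64 to 4.74) for Ser2P and 2.59 points (1.44 to 3.74) for total Pol II. Over all distal peaks the gaps were 3.88 points (3.41 to 4.35) and 5.31 points (4.64 to 5.99), so the Ser2P gap of the regions was near that of all distal peaks and the total Pol II gap was below it. The Ser2P share was 1.33 points (0.591 to 2.07) higher after LPS in scrambled cells, with 67 regions in the LPS list alone and 32 in the untreated list alone. It was 5.02 points (3.98 to 6.06) higher in shWdr82 cells, with 166 and 34 such regions. The total Pol II share differed by 0.533 points (-0.410 to 1.48) in scrambled cells, which is within counting error, and was 3.12 points (1.99 to 4.25) higher after LPS in shWdr82 cells. This stands against lists of total Pol II that were shorter after LPS in both vectors, at 21891 peaks against 32385 in scrambled and 22307 against 28497 in shWdr82 cells. At the constant premarked peaks total Pol II in scrambled cells differed by -9.60 points (-10.9 to -8.29) after LPS. H3K36me3 at the regions differed by -1.41 points (-2.18 to -0.631) after LPS in scrambled cells and by 0.418 points (-0.285 to 1.12) in shWdr82 cells.

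Set against each other after LPS, the vectors differed in Ser2P. The shWdr82 share was 3.31 points (2.41 to 4.21) above the scrambled share. Of the 2629 regions, 118 had Ser2P in the shWdr82 LPS list and not the scrambled one, and 31 the reverse. Over all distal peaks, 5.28% fell in the first pattern and 1.27% in the second. The shWdr82 share was higher on 17 chromosomes and lower on 1, and over all distal peaks it was higher on 20 and lower on 0. All chromosomes come from the same pair of libraries, so these counts are no replication. Total Pol II after LPS was 1.45 points (0.510 to 2.38) higher in shWdr82 cells, with 98 regions in that list alone and 60 in the scrambled list alone, where 6.14% and 3.97% of all distal peaks had these patterns. In untreated cells total Pol II differed by -1.14 points (-1.85 to -0.435) in shWdr82 cells and Ser2P by -0.380 points (-0.986 to 0.225), within counting error.

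List breadth moved with this result. The Ser2P shWdr82 LPS list covered 60.6 Mb with 14870 peaks and the scrambled LPS list 44.7 Mb with 14420. With every peak of the broader list trimmed about its centre until both lists spanned equal length, the difference at the regions was 2.62 points (1.73 to 3.52). With the broader list cut to its highest-scoring peaks at equal length, and the other kept whole, the difference was 0.380 points (-0.350 to 1.11). It no longer stood apart from 0, but this cut took low-scoring Ser2P peaks from the shWdr82 LPS list alone. Total Pol II under that setting differed by 0.609 points (-0.304 to 1.52) after LPS and -0.418 points (-1.10 to 0.261) in untreated cells. The part of sequencing depth or enrichment in the broader list was not tested. At the 1632 regions with H3K27ac scores of 100 or more in both LPS lists, the total Pol II difference after LPS was 0.490 points (-0.686 to 1.67). Among them it was 2.28 points (1.32 to 3.23) at regions with no H3K36me3 list. It was -7.35 points (-12.2 to -2.5) at those with H3K36me3 in all 4 lists.

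Around the regions, coverage by Ser2P peaks of the shWdr82 LPS library was higher over the whole window and not at the centre alone. At the centre 7.07% of the regions were covered by a Ser2P peak of that library, against 6.05% at 10000 bp to the left and 6.12% at 10000 bp to the right. In scrambled LPS cells the shares were 3.69%, 4.26% and 3.35%, and in untreated cells of both vectors they lay between 2.05% and 2.85%. The premarked gained peaks had a similar profile, with 7.29% at the centre and 5.98% and 5.76% at the same flanks in shWdr82 LPS cells. Their scrambled LPS shares were 5.03%, 3.43% and 2.77%. H3K4me1 at the regions had a different shape. After LPS it covered 4.83% of the centres in scrambled and 5.86% in shWdr82 cells. The flanks were covered more often, at 11.2% and 11.1% in scrambled cells at 10000 bp to the left and right.

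**Figure D3:**
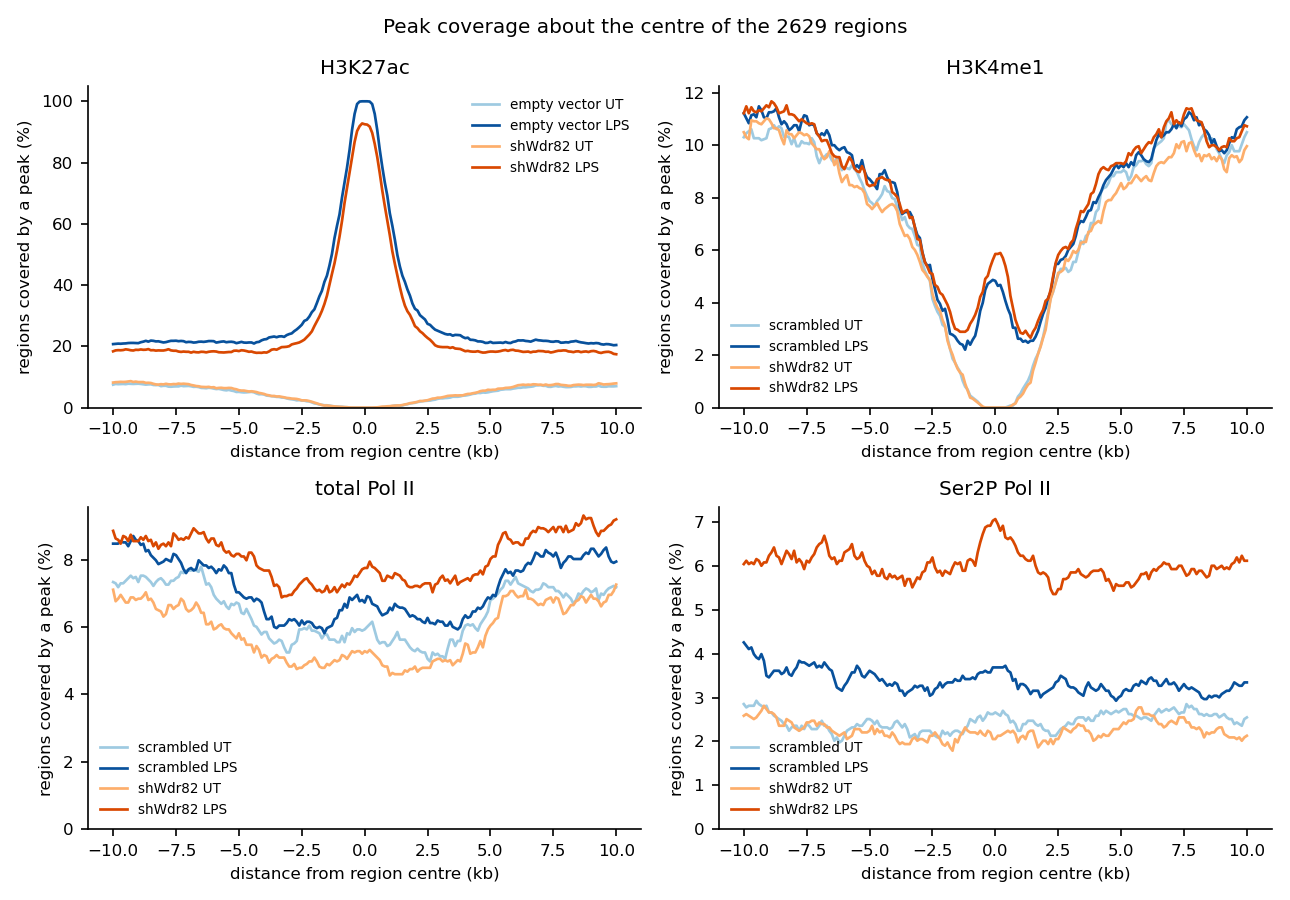
Percentage of the 2629 regions covered by a peak at each distance (kb) from the region centre, for H3K27ac, H3K4me1, total Pol II and Ser2P, in the untreated (light) and LPS (dark) libraries of the control (blue) and shWdr82 (orange) vectors. The untreated H3K27ac and H3K4me1 lines are at 0 in the centre because the rule requires it. The same choice bears on the low centre of the LPS H3K4me1 lines. The shWdr82 LPS Ser2P line runs above the other 3 across the window, with 7.07% at the centre.

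The difference in Ser2P lay in the regions outside H3K36me3, and over all distal peaks it was also larger there. No H3K36me3 list held a peak at 2054 regions, all 4 lists did at 384, and 1 to 3 lists did at 191. At the 2054 regions without H3K36me3, Ser2P was found in 35 (1.70%) in scrambled untreated cells, in 48 (2.34%) in scrambled cells after LPS, in 32 (1.56%) in shWdr82 untreated cells and in 134 (6.52%) in shWdr82 cells after LPS. Only the last library stood apart from the others. The LPS difference between vectors was 4.19 points (3.20 to 5.17), from 98 regions in the shWdr82 list alone and 12 in the scrambled list alone. The shWdr82 share was higher on 19 chromosomes and lower on 0, all from 1 library per group. Over all 11308 distal peaks without H3K36me3 the LPS shares were 7.74% in shWdr82 and 3.10% in scrambled cells. There 587 peaks had Ser2P in the shWdr82 list alone and 62 in the scrambled list alone, with 20 chromosomes higher and 0 lower. With the shWdr82 list alone cut to its highest-scoring peaks of equal length, the difference at the regions was 1.56 points (0.786 to 2.33). At the 384 regions with H3K36me3 in all 4 lists, Ser2P after LPS was found at 74 (19.3%) in the shWdr82 list and 73 (19.0%) in the scrambled list. That difference was 0.260 points (-2.39 to 2.91), and -4.69 points (-7.04 to -2.34) with the shWdr82 list alone cut in this way. As deposited, the gap between these 2 differences was 3.93 points (1.10 to 6.76).

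Total Pol II was also split by H3K36me3. Without H3K36me3 it overlapped 17 regions (0.828%) in scrambled untreated, 34 (1.66%) in scrambled LPS, 13 (0.633%) in shWdr82 untreated and 92 (4.48%) in shWdr82 LPS cells. The LPS difference between vectors was 2.82 points (2.00 to 3.65), with 67 regions against 9. Over all distal peaks without H3K36me3 the LPS shares were 14.1% in shWdr82 and 10.7% in scrambled cells, with 605 peaks against 220. At the regions with H3K36me3 in all 4 lists the order was the opposite, with LPS shares of 32.6% in shWdr82 and 37.0% in scrambled cells. That difference was -4.43 points (-8.26 to -0.599). The untreated difference was close to it, at -3.91 points (-7.38 to -0.429) from 33.1% and 37.0%, and LPS moved the difference by -0.521 points (-5.62 to 4.58). The interval of the LPS difference lay off 0 in 8 of 14 other settings, and the value was -1.56 points (-5.10 to 1.97) with peaks of score 100 or more and -1.98 points (-5.96 to 2.01) with regions drawn from the shWdr82 list. The gap between the 2 differences was 7.25 points (3.34 to 11.2).

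Higher polymerase in shWdr82 cells after LPS outside H3K36me3 was also found in the other classes. Among peaks without H3K36me3, Ser2P after LPS was 3.54 points (2.17 to 4.91) higher in shWdr82 cells at 989 premarked gained peaks. It was 5.66 points (4.90 to 6.42) higher at 4325 constant premarked peaks and 4.64 points (4.21 to 5.08) higher over all 11308 distal peaks. For total Pol II these differences were 5.16, 3.31 and 3.40 points. The values inside H3K36me3 were less alike. With H3K36me3 in all 4 lists, Ser2P differed by 1.27 points (-2.35 to 4.89) at the premarked gained peaks and by 2.13 points (0.558 to 3.71) at the constant premarked peaks. Total Pol II there differed by -0.847 points (-5.83 to 4.13) and 0.200 points (-1.93 to 2.33). Over all 3030 distal peaks with H3K36me3 in all 4 lists, Ser2P differed by 1.75 points (0.698 to 2.80). Total Pol II at these 3030 differed by -1.16 points (-2.65 to 0.335). The gap in Ser2P between peaks outside and inside H3K36me3 was 2.27 points (-1.60 to 6.13) at the premarked gained peaks, whose interval holds 0, and 3.53 points (1.78 to 5.28) at the constant premarked peaks.

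**Figure D4:**
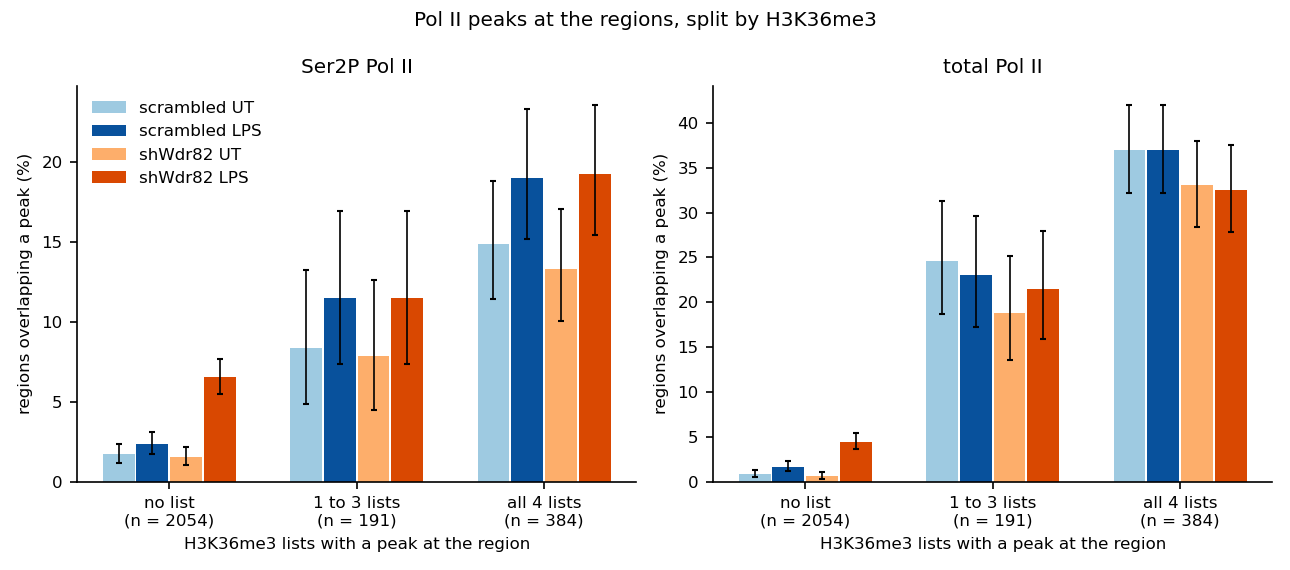
Percentage of regions overlapping a Ser2P (left) or total Pol II (right) peak in each library, with 95% Clopper-Pearson intervals, split by the number of H3K36me3 lists with a peak at the region. Without H3K36me3 the shWdr82 LPS bar is the tallest (6.52% for Ser2P, 4.48% for total Pol II), and with H3K36me3 in all 4 lists the Ser2P bars after LPS are level at 19.3% and 19.0%.

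The Ser2P peaks of shWdr82 LPS cells at regions outside H3K36me3 mostly overlapped no Ser2P peak of scrambled LPS cells. At regions without H3K36me3, the shWdr82 LPS list had 134 distinct Ser2P peaks, of which 86 overlapped no scrambled LPS peak, and the scrambled LPS list had 49, of which 12 overlapped no shWdr82 peak. The median width of these peaks was 3367 bp in shWdr82 and 2436 bp in scrambled cells. The 98 regions with Ser2P in shWdr82 cells alone overlapped no scrambled LPS Ser2P peak by choice. From them the nearest such peak was at a median of 21620 bp, with no background distance to set beside it. It lay within 1000 bp of 13 regions, within 10000 bp of 32 and beyond 50000 bp of 30. Total Pol II at the 98 is a description only, since they were chosen for Ser2P in the shWdr82 list and not the scrambled one. After LPS it overlapped 29 of the 98 (29.6%) in the shWdr82 list and 3 (3.06%) in the scrambled list. Some of the 98, and of these 29, are neighbours in the chromosome 16 group described below. At the 36 regions with Ser2P in both LPS lists the numbers were 22 and 20. Of the 1908 regions with Ser2P in neither, 40 and 9 had total Pol II. The 98 regions had a median H3K27ac score of 228 and width of 2377 bp, against 198 and 2069 bp at the 1908.

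By pattern over the 4 Ser2P libraries, 2323 regions had no Ser2P peak, 111 had one in the shWdr82 LPS list alone, 54 in all 4 lists and 43 in both LPS lists and neither untreated list. As shares of the regions the last 3 were 4.22%, 2.05% and 1.64%, against 4.53%, 2.58% and 1.75% of all distal peaks, and 88.4% against 85.8% had no peak. For total Pol II, 2232 regions had no peak, 86 had one in the shWdr82 LPS list alone, 86 in all 4 lists and 51 in both LPS lists and neither untreated list. The shares were 84.9%, 3.27%, 3.27% and 1.94% in this order, against 64.7%, 4.08%, 6.36% and 4.76% of all distal peaks.

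Individual regions show how these patterns look. Among the regions with Ser2P in both LPS lists alone, chr3:14673762-14679911 lay outside H3K36me3, 21243 bp from untreated H3K4me1. Its Ser2P scores after LPS were 288 in scrambled and 625 in shWdr82 cells, and its only total Pol II peak, with a score of 67.78, was in shWdr82 LPS cells. The region chr9:107203654-107209014 also lay outside H3K36me3 and held both forms of polymerase after LPS in both vectors and in neither untreated list. Its total Pol II scores were 275 in scrambled and 362 in shWdr82 cells, and its Ser2P scores 209 and 756. It also gained an H3K4me1 peak with a score of 53.25 in the scrambled LPS list. The region chr2:4955452-4959021 had H3K36me3 in all 4 lists, total Pol II scores after LPS of 1227 in scrambled and 1466 in shWdr82 cells, and Ser2P scores of 389 and 266. Of the 10 top-ranked regions with this Ser2P pattern, 3 lay outside H3K36me3, and of the 10 with the same total Pol II pattern, 5 did. Scores of different lists depend on depth, so their order between vectors is a description of the lists.

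Many regions had another nearby, but the same count was not made for other distal peaks. Joining regions no more than 50000 bp apart gave 1811 groups, of which 1351 were single regions, 294 were pairs and 166 held 3 or more, with 690 regions in the last. In all, 1278 regions (48.6%) had another within that distance. Adjoining peaks were counted apart, for instance chr3:15177061-15183067 and chr3:15183069-15185218. In empty vector LPS cells, H3K27ac covered 20.7% of positions 10000 bp to the left of the regions. The share was 20.7% at the premarked gained peaks too. The largest groups held 11 regions. One, on chromosome 1 from 175477014 to 175604519, had all 11 outside H3K36me3 and no Pol II, Ser2P or H3K4me1 peak at any of them in any list. Another with 11, on chromosome 19 from 29150054 to 29293877, had total Pol II at 1 region in scrambled LPS cells and Ser2P at 0. A group of 10 on chromosome 3 from 131255020 to 131382734 and one of 9 on chromosome 3 from 15136855 to 15196977 had no polymerase peak at their regions.

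The group on chromosome 16 from 84559939 to 84726290 differed from these. Its 11 regions had no Ser2P and no total Pol II peak in untreated cells of either vector. After LPS, Ser2P was found at 4 of them in scrambled and at 10 in shWdr82 cells, and total Pol II at 2 and at 8. Of the 11, 9 lay outside H3K36me3, while the 2 at the right end had H3K36me3 in all 4 lists and both forms of polymerase after LPS in both vectors. Ser2P peaks covered 17.6% of the 166352 bp of the group in scrambled LPS and 71.7% in shWdr82 LPS cells. Total Pol II covered 32.0% and 57.2%, H3K27ac 72.0% in empty vector and 68.9% in shWdr82 cells, and H3K36me3 11.3% and 10.3%. At the widest region, chr16:84675965-84685664, the Ser2P score after LPS was 65.23 in scrambled and 2923 in shWdr82 cells. These 11 regions are neighbours and may share a transcribed unit, so they count as 1 place in the genome.

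**Figure D5:**
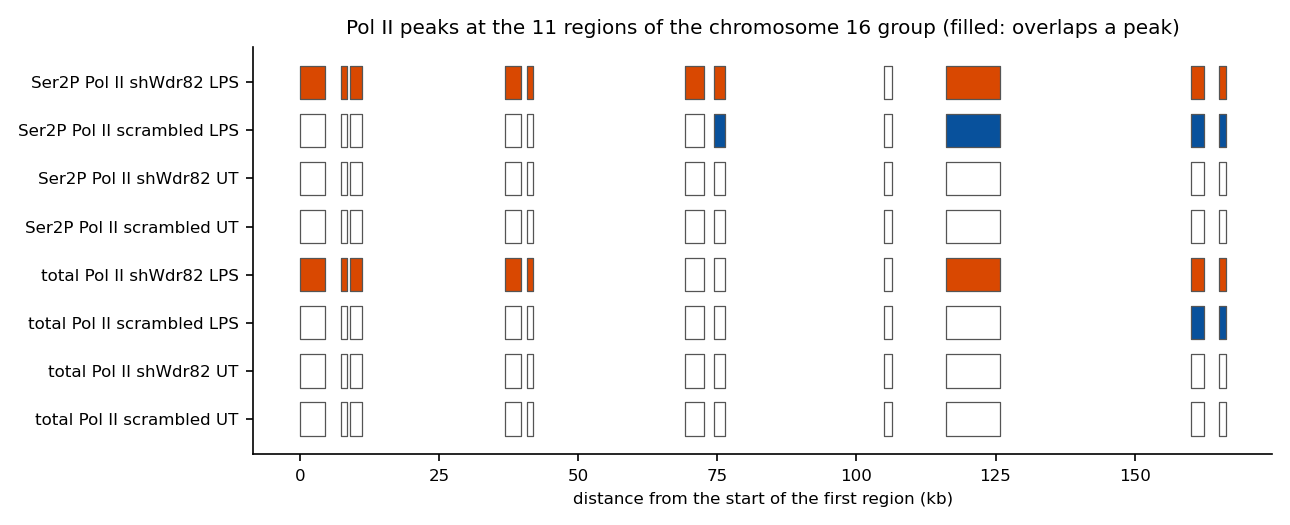
The 11 regions of the chromosome 16 group drawn to scale along the distance (kb) from the start of the first, with a row for each Ser2P and total Pol II library, filled where the region overlaps a peak. All 4 untreated rows are empty, and the Ser2P row of shWdr82 LPS cells is filled at 10 regions against 4 in scrambled LPS cells.

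Polymerase was least often found at the regions farthest from older H3K4me1. At the 582 regions more than 20000 bp from untreated H3K4me1, total Pol II was found in 2.92%, 2.92%, 2.58% and 3.61% of regions in scrambled untreated, scrambled LPS, shWdr82 untreated and shWdr82 LPS cells. At the 1013 regions over 5000 and up to 20000 bp away these were 9.97%, 10.3%, 8.59% and 10.4%. H3K36me3 was also least common in the farthest bin. In scrambled untreated cells it overlapped 22.2%, 24.1%, 20.6% and 8.76% of regions from the nearest to the farthest bin. The part of H3K36me3 in the lower polymerase shares was not tested. Ser2P in shWdr82 cells after LPS was found in 7.89%, 9.90%, 11.7% and 2.41% of regions from the nearest to the farthest bin, and in scrambled cells after LPS in 3.76%, 6.12%, 7.40% and 1.89%. By quartile of the H3K27ac score from lowest to highest, the shWdr82 LPS Ser2P shares were 8.66%, 7.31%, 9.28% and 9.74%, with overlapping intervals. In every bin and quartile the Ser2P share after LPS was higher in shWdr82 than in scrambled cells, by the least beyond 20000 bp.

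Ser2P gained after LPS in both vectors also lay near the regions more often than Ser2P lost in both. Within 20000 bp of 240 regions (9.13%, 8.05 to 10.3) there was at least 1 of the 2118 gained Ser2P peaks, and within 20000 bp of 77 (2.93%, 2.32 to 3.65) at least 1 of the 1809 lost peaks. At the premarked gained peaks these shares were 7.51% and 3.43%, and at the constant premarked peaks 7.82% and 5.25%. For total Pol II the gained and lost shares at the regions were 10.7% and 11.5%, and at the constant premarked peaks 16.0% and 29.3%, from 2766 gained and 8028 lost peaks. H3K4me3 peaks gained in both vectors lay within 20000 bp of 23 regions (0.875%) and lost ones within 20000 bp of 58 (2.21%), from 137 gained and 391 lost peaks. These shares were 0.510% and 1.38% at the premarked gained peaks, and 0.351% and 1.65% at the constant premarked peaks. Distance to H3K4me3 was part of the choice of all these classes. No neighbour share was counted over all distal peaks.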

How the data were processed

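The files were peak lists, 1 per library. Bowtie 0.12.7, MACS 1.4 and the mm9 build are named in the submitters' processing notes, without roles. The peak score (column 5) and the positions are the deposited values of the authors. No input, read count or depth is given in the sources used here. Lists were read with Python 3.11.15, numpy 2.4.6, pandas 2.3.3 and scipy 1.17.1, and positions are printed counted from 1. Overlap means 1 bp or more. The interval functions were tested on simulated data. Gained and lost neighbours are peaks in both LPS lists and no untreated list, or the reverse. Shares over all distal H3K27ac peaks serve as background.

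The regions and lists were chosen with earlier results of these data known. Regions named by position were 10 of the 46 tied at the highest lower H3K27ac score of the 2 LPS lists (the first in genome order), the 10 farthest from untreated H3K4me1, up to 10 each with Ser2P or total Pol II in both LPS lists alone, and the 5 largest groups. The tied regions were summarised, and single regions picked within these sets, after their values were seen. No gene annotation or genome of the mm9 build was used here, so gene names, sequences and motifs were not analysed. Alternatives were another overlap, score minimum, list length, window or region rule. Lists of equal covered length, for which only the broader list of a pair was cut or trimmed, were added after seeing the data.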

Additional observations from a re-analysis of the deposited data

Results flagged for a closer look

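At the regions, the difference between shWdr82 and scrambled cells had opposite signs in untreated and LPS-treated cells for 3 antibodies. For total Pol II it was -1.14 percentage points untreated and 1.45 after LPS. For Ser2P it was -0.38 and 3.31 points, and for H3K36me3 -0.494 and 1.33 points. The gap between the treatments was 2.59 points (1.44 to 3.74) for total Pol II, 3.69 (2.64 to 4.74) for Ser2P and 1.83 (0.753 to 2.90) for H3K36me3, with intervals for counting error only. Over all distal peaks the signs were also opposite for total Pol II (-3.15 and 2.17 points) and H3K36me3 (-0.634 and 0.716 points), with gaps of 5.31 and 1.35 points, while Ser2P was 0.126 and 4.01 points. With the broader list alone cut to its highest-scoring peaks of equal covered length, the Ser2P difference at the regions was 0 untreated and 0.380 points after LPS. With 1 library per group, the difference between treatments was not tested against a spread between cultures, and the untreated values for Ser2P and H3K36me3 are within counting error of 0.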

How the results depend on the processing

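Across 16 results and 15 other settings there were 204 values, of which 186 moved by less than their interval or spread, 18 moved further and 0 changed the sign of a called value. The share with H3K4me1 after LPS moved most. In scrambled cells it was 7.11% as reported, 2.05% with peaks of score 100 or more, 5.10% with equal list lengths, 6.09% in 1000 bp about the centre, 14.6% with 1000 bp added on each side, 11.7% when H3K4me1 had to be absent from the scrambled untreated list only, and 5.74% with top-scoring peaks of equal covered length. In shWdr82 cells it was 8.86% as reported, and 2.43% at score 100, 7.49% in 1000 bp about the centre, 16.8% with added flanks, 14.4% under the scrambled-only rule and 10.2% at regions with H3K27ac scores of 100 or more. That last rule left 1632 regions instead of 2629, and a total Pol II difference after LPS of 0.490 points. With the broader list alone cut to top-scoring peaks of equal covered length, the total Pol II difference in untreated cells was -0.418 points. The Ser2P difference after LPS was then 0.380 points over all regions, 1.56 points without H3K36me3 and -4.69 points with H3K36me3 in all 4 lists, and the H3K36me3 difference after LPS was 0.456 points. The Ser2P difference after LPS outside H3K36me3 was above 0, with its interval, in 14 of 14 settings (1.56 to 4.67 points). Inside H3K36me3 it kept its sign in 9 of 14. No replicate could be left out, since each group has 1 library. No paired analysis was possible because each group has 1 library and the labels give no replicate numbers. Depth is unknown, so weak peaks near the score floor of 50 limit every share.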
